A study of Mus musculus with 6 samples.

Results

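The 35 odorant receptor genes described here are those on mouse chromosome 19 with numbers from Olfr1417 to Olfr1505, each measured by a transcript cluster of its own. They were chosen by gene symbol, with earlier results of these data known, leaving out pseudogene symbols and Olfr1440. They are 35 of 712 receptor genes with such a cluster on the array. The gene table places 60 receptor genes of this number range on chromosome 19. Of these, 16 share a cluster with other genes, 8 have no cluster in the annotation used, and Olfr1440 is kept apart. The cluster of Olfr1434 lists 2 gene identifiers under that 1 symbol, and each of the others lists 1.

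The tissue was olfactory epithelium, which lines the nasal cavity and holds the sensory neurons of smell, from ED18.5 mouse embryos (embryonic day, shortly before birth). One group was homozygous wildtype for Emx2, a homeodomain transcription factor of the developing forebrain and olfactory epithelium, and the other was labelled Emx2 knockout. The labels name neither the strain nor the make of the knockout allele. RNA of 3 animals was pooled per array, with 3 arrays and so 9 animals per genotype. Values are log2 signals, whose precision is limited by these 3 and 3 arrays.

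Odorant receptors are G protein-coupled receptors in the cilia of olfactory sensory neurons, where they bind odorants and signal through the olfactory G protein and cyclic AMP. A mature neuron expresses one receptor allele out of the whole repertoire, so the signal of a receptor in tissue RNA follows both how many neurons have chosen it and how much RNA each holds. Receptor genes lie in tandem arrays, and neighbours are often recent duplicates of each other. The receptors named here carry a second, family-based name beginning with MOR, for mouse olfactory receptor, whose first number groups sequences that are alike. Olfr1440 of family MOR215 is known as a receptor for the musk odorant muscone, and family MOR214 holds further musk receptors.

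The chromosome 19 members belonged to 8 such families, of which MOR202 held 20 members, MOR266 held 5, MOR239 and MOR212 held 3 each, and MOR214, MOR215, MOR127 and MOR211 held 1 each. RefSeq gives a window around the annotated start of 33 of them on build GRCm38.p6, 250 bases before and 50 after. In 29 windows the annotated start was the start codon itself, so that the last 50 bases show how the coding sequence begins. The 406 pairs of these 29 coding starts were compared position by position from the start codon, without gaps. In that count 4 pairs were more alike than all others. They are shown because each pair sets 2 like coding starts side by side, and capitals mark the positions at which the members of a pair differ.
Olfr1446: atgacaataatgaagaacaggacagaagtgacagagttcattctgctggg
Olfr1447: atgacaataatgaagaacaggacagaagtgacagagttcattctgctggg
Olfr1501: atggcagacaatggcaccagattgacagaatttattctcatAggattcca
Olfr1504: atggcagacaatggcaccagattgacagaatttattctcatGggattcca
Olfr1445: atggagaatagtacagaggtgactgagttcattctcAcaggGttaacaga
Olfr1448: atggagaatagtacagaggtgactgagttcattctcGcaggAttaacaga
Olfr1459: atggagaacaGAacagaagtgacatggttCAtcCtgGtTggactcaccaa
Olfr1462: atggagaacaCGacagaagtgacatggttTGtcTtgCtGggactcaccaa
On GRCm38.p6 these lie on the minus strand at chr19:12890526-12890575, chr19:12901729-12901778, chr19:13839122-13839171, chr19:13888159-13888208, chr19:12920258-12920307 and chr19:13146608-13146657, and on the plus strand at chr19:12883883-12883932 and chr19:13190669-13190718. Olfr1446 and Olfr1447 were identical over the 50 bases, Olfr1501 and Olfr1504 differed at 1, Olfr1445 and Olfr1448 at 2, and Olfr1459 and Olfr1462 at 7. The next pairs shared at most 42 of 50 bases, and the median pair within a family shared 17. Starts that are shifted against each other by added or missing bases score as unlike in this count. It therefore does not measure how alike the members of a family are. Close copies can share probe signal, so the values of single receptors are uncertain to that degree.

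Emx2 itself read 8.37, 8.59 and 8.36 in wildtype replicates 1, 2 and 3 and 8.38, 8.33 and 8.39 in the others (log2 difference -0.07, SE 0.09; limma adjusted p = 0.894). The value summarises all probes of the cluster, and which of them lie in the deletion is unknown here. It therefore checks nothing about the labels, and the second group is called the knockout-labelled arrays. The labelled tissue showed high signal of olfactory neuron genes, with Omp, the olfactory marker protein, between 11.22 and 12.51 over the 6 arrays. Signal of the Y-linked gene Eif2s3y was high (7.78 to 8.89) in 1 wildtype array, replicate 2, and in knockout-labelled replicates 2 and 3. It was low (3.30 to 3.69) in the remaining arrays, so both groups held pools of either kind.

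Most chromosome 19 receptors had lower signal in the knockout-labelled arrays, by a median close to that of receptors elsewhere. The log2 difference, knockout-labelled minus wildtype, was negative in 30 of the 35 members and positive in 5. Its median was -0.74, with quartiles of -1.27 and -0.13, where the median of all clusters was -0.04. For 9 members the fall passed the test across all 16661 clusters (limma, adjusted p at or under 0.05), which 1.90% of all clusters did in that direction. These were Olfr1442, Olfr1459, Olfr1489, Olfr1423, Olfr1427, Olfr1446, Olfr1428, Olfr1466 and Olfr1443. Olfr1440, which lies in the same stretch and is left out by name, rose (0.74; limma adjusted p = 0.0256), so the counts of higher members leave out a receptor known to be higher. Among the 35 members limma called 0 higher, and 0 had a positive difference at an unadjusted p under 0.05, where 0.144% of all clusters were called higher and 1.81% had an unadjusted p under 0.05 in that direction. A fall at an unadjusted p under 0.05 was found in 19 members, against 8.33% of all clusters. In bulk tissue, fewer neurons that carry a receptor and less of its RNA per neuron cannot be told apart.

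The count of 9 was 5 without wildtype replicate 2 and 3 without knockout-labelled replicate 1, and 6 to 9 without any other single array. With at least 2-fold lower signal there were 12 members, against 2.02% of all clusters, and 1 member was at least 4-fold lower, against 0.468%. All 3 knockout-labelled arrays lay below all 3 wildtype arrays in 17 members, where 12.0% of all clusters did so. The reverse, with all knockout-labelled arrays above all wildtype arrays, held in 0 members and in 3.51% of all clusters, and it held in Olfr1440, which is not counted here.

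**Figure D1:**
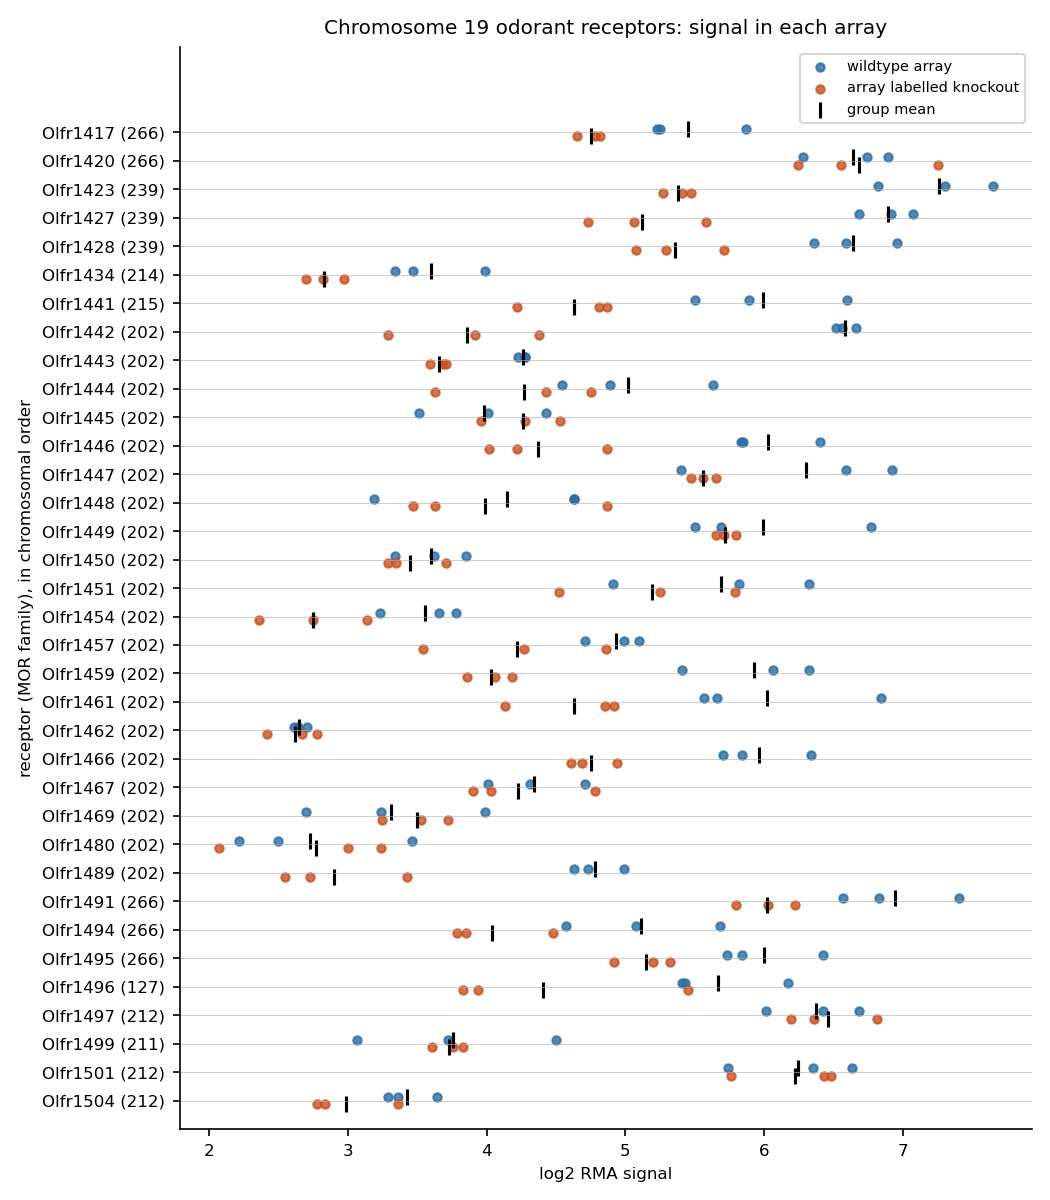
Log2 signal (horizontal axis) of each of the 35 receptors, in chromosomal order from top to bottom with the MOR family number in brackets; points are single arrays (3 wildtype, 3 knockout-labelled) and bars are group means. The groups stand fully apart in 17 receptors, all with the knockout-labelled arrays lower, and overlap in the others.

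The mean over the 35 members was 5.07, 5.11 and 5.40 in wildtype replicates 1, 2 and 3 and 4.40, 4.49 and 4.36 in the knockout-labelled replicates. The 2 groups of arrays did not overlap. The difference of the group means was -0.78, from 5.19 ± 0.18 (SD, n = 3) to 4.41 ± 0.07 (SD, n = 3). Over the 676 other receptors the mean fell from 5.26 ± 0.11 to 4.49 ± 0.05 (SD, n = 3 each), a difference of -0.77. Their median of -0.66, their share of 26.3% called lower and their share of 55.2% with separated groups stood beside -0.74, 25.7% and 48.6% in the chromosome 19 members. Within each array, the members minus the other receptors averaged -0.07 ± 0.08 (SD, 3 wildtype arrays) and -0.08 ± 0.04 (SD, 3 knockout-labelled arrays). Those 2 offsets differ by -0.01, less than the spread between arrays. Setting the members against 3 other groups of receptors, the median was -0.54 in the 79 receptors from Olfr829 to Olfr986, -0.62 in the 35 from Olfr763 to Olfr828 and -0.95 in the 62 from Olfr1141 to Olfr1271, all of which are compared with the same wildtype arrays.

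**Figure D2:**
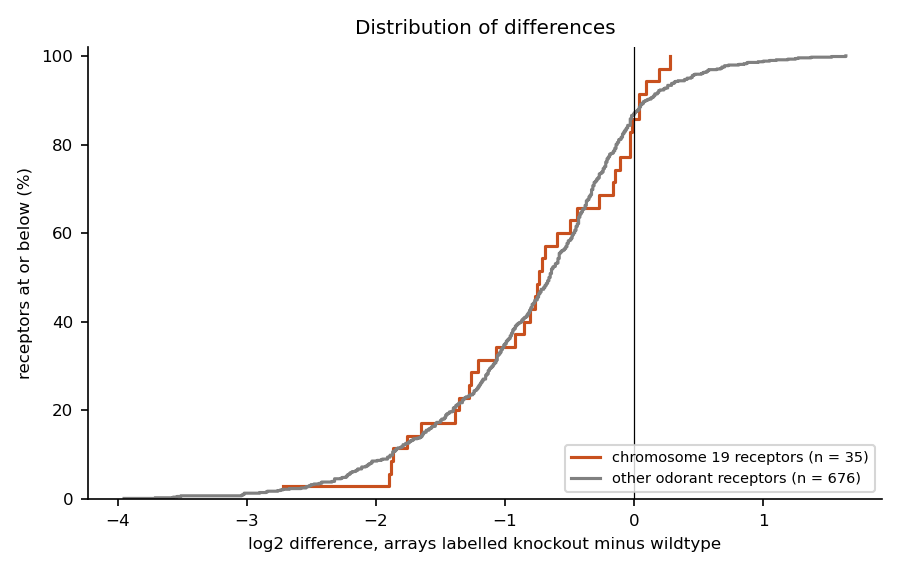
Share of receptors (vertical axis, percent) at or below each log2 difference, knockout-labelled minus wildtype (horizontal axis), for the 35 chromosome 19 members and the 676 other odorant receptors. The curves run close together through medians of -0.74 and -0.66. The members end at 0.28, while the other receptors reach 1.64. Olfr1440 of the same stretch, at 0.74, is left out of both curves, so the upper end of the members depends on that choice.

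Among arrays with like Y-linked signal the mean stayed negative. The mean difference was -0.68 between knockout-labelled replicates 2 and 3 and wildtype replicate 2, all with high Y-linked signal, and -0.84 between knockout-labelled replicate 1 and wildtype replicates 1 and 3, with low Y-linked signal. These comparisons rest on 3 arrays each and carry no test.

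Markers of the cells that carry receptors were mostly lower in the same arrays. Of 15 measured markers of mature olfactory neurons, 13 were negative with a median of -0.69, and 4 fell by limma's test, S100a5 (-2.29; limma adjusted p = 0.00983) and Ano2 (-1.21; limma adjusted p = 0.0145) with the smallest p. The mean of the list lay between 9.24 and 9.62 in wildtype arrays and between 8.69 and 8.93 in knockout-labelled arrays. Taking this marker mean from the member mean within each array left -4.28 ± 0.19 (SD, 3 wildtype arrays) and -4.36 ± 0.08 (SD, 3 knockout-labelled arrays). The difference of -0.09 is smaller than the spread between wildtype arrays. It depends on which markers are averaged, since the list was uneven. Beside S100a5 at -2.29, it held Gnal at -0.21, Pde1c at -0.01, Cngb1 at 0.02 and Slc24a4 at 0.04. The difference without S100a5 was not computed. Among 8 immature neuron markers all were negative (median -0.37), and 2 fell, Gap43 at -0.52 (limma adjusted p = 0.0406) and Trib3 at -0.83 (limma adjusted p = 0.0456).

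No marker of the 4 other cell type lists passed the test (limma), though 3 of these lists were positive throughout. The bone and cartilage list was positive in 10 of 10 measured genes with a median of 0.36, and its mean was 8.97 to 9.12 in wildtype and 9.34 to 9.52 in knockout-labelled arrays. Sp7, an osteoblast transcription factor, stood at 0.59 (limma adjusted p = 0.125) and Ibsp, a bone matrix protein, at 1.04 (limma adjusted p = 0.13). Sustentacular markers were positive in 5 of 5 (median 0.21; means of 9.31 to 9.53 and 9.57 to 9.92), with Muc2 at 0.50 and Cyp1a2 at 0.74. Muscle markers were positive in 5 of 5 (median 0.53; means of 6.74 to 7.47 and 6.94 to 8.07), with Ckm at 0.53 and Tnnt3 at 0.57. Basal cell markers, with a median of -0.04 over 3 genes and means of 8.02 to 8.26 and 7.91 to 8.33, held Trp63 at 0.11 and Krt5 at -0.10. Over all 6 lists, no measured marker had a mean under 6.06 across the arrays. The part of these shifts in the receptor result was not tested.

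**Figure D3:**
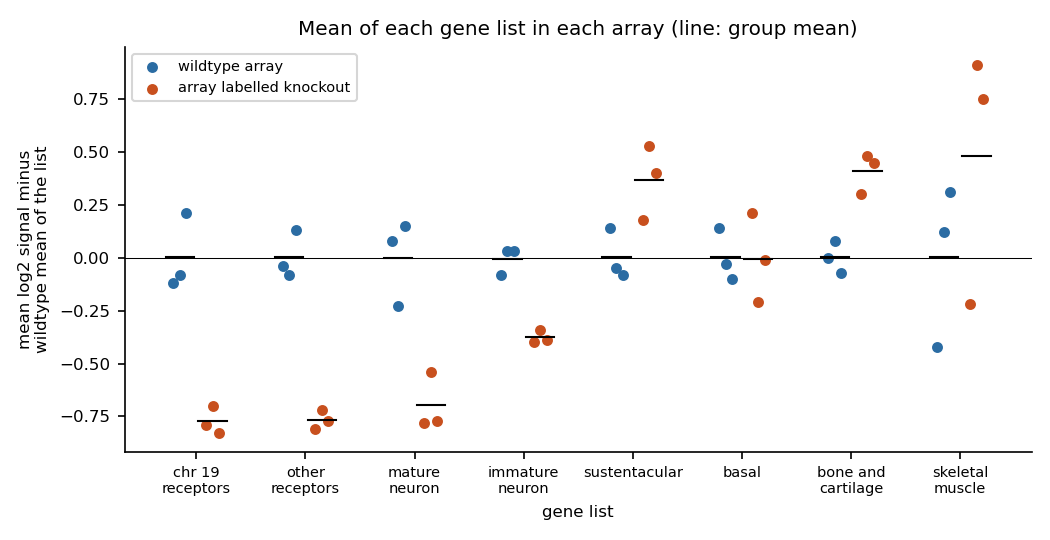
Mean log2 signal of each gene list in each array (vertical axis, minus the wildtype mean of that list) for the 35 chromosome 19 receptors, the other receptors and the cell type marker lists; points are arrays and lines group means. Both receptor lists and the mature neuron list are lower in all 3 knockout-labelled arrays, and the bone and cartilage list is higher in all 3.

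In chromosomal order the stretch opens with Olfr1417 and Olfr1420 of family MOR266, whose values differ in direction. Olfr1417 was at 5.23, 5.25 and 5.87 in wildtype replicates and 4.65, 4.82 and 4.78 in knockout-labelled replicates. Its groups did not overlap, and the difference of -0.69 (SE 0.18) did not pass the test (limma adjusted p = 0.169). Olfr1420 read 6.28, 6.74 and 6.89 against 7.25, 6.24 and 6.55, with overlapping groups and a difference of 0.04 (95% interval -0.61 to 0.70). The 3 other MOR266 members lie near the far end of the stretch, and all had separated groups.
Olfr1491 went from 6.83, 6.57 and 7.40 to 6.03, 5.80 and 6.22, a difference of -0.92 (limma adjusted p = 0.128). Olfr1494, with the lowest difference of this family at -1.07, was at 5.08, 4.57 and 5.68 against 3.85, 3.79 and 4.48 (limma adjusted p = 0.224). Olfr1495 went from a mean of 6.00 to 5.15, at -0.85 (limma adjusted p = 0.116). So 4 of the 5 MOR266 members were lower in every knockout-labelled array, against 12.0% of all clusters and 55.2% of the other receptors. A fall at an unadjusted p under 0.05 was found in 4 of 5, against 8.33% of all clusters and 393 of the 676 other receptors. The adjusted test (limma) was passed by 0 of 5.

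All 3 members of family MOR239 fell, where 26.3% of the other receptors and 1.90% of all clusters did. These 3 follow one another in the chromosomal order of the 35 members. Their coding starts are shown because these receptors differ more from each other than the close pairs above; 27 of the 50 positions are the same in all 3, and capitals mark the positions that are not.
Olfr1423: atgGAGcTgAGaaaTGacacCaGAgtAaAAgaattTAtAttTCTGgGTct
Olfr1427: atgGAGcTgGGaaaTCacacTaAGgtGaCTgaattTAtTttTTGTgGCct
Olfr1428: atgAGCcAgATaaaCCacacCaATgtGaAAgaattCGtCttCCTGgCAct
They lie on the minus strand of GRCm38.p6 at chr19:12036691-12036740, chr19:12099588-12099637 and chr19:12109495-12109544. Olfr1423 had 7.65, 7.30 and 6.82 in wildtype arrays and 5.41, 5.47 and 5.27 in knockout-labelled arrays, a fall of 3.67-fold (log2 difference -1.87, SE 0.20; limma adjusted p = 0.00782). Signal of Olfr1427 was 6.68, 7.07 and 6.91 against 5.06, 4.73 and 5.58, a fall of 3.39-fold (log2 difference -1.76, SE 0.22; limma adjusted p = 0.0126). For Olfr1428 the values were 6.36, 6.59 and 6.96 against 5.29, 5.08 and 5.71, a fall of 2.42-fold (log2 difference -1.28, SE 0.21; limma adjusted p = 0.032). No knockout-labelled value of any of the 3 reached the lowest wildtype value of that receptor. The family mean went from 6.93 ± 0.05 to 5.29 ± 0.22 (SD, n = 3 each). Olfr1423 kept its call without any single array. Olfr1427 lost it without wildtype replicate 3 (limma adjusted p = 0.0508) or knockout-labelled replicate 1 (0.0587). Olfr1428 lost it without wildtype replicate 2 (0.0947), wildtype replicate 3 (0.081), knockout-labelled replicate 1 (0.134) or knockout-labelled replicate 2 (0.0939).

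Next in order come Olfr1434 of the musk receptor family MOR214 and Olfr1441 of MOR215, the uncalled members nearest the threshold. Olfr1434 was at 3.34, 3.99 and 3.47 in wildtype arrays and 2.82, 2.97 and 2.70 in knockout-labelled arrays (log2 difference -0.77, SE 0.18; limma adjusted p = 0.112). Olfr1441 went from 5.50, 5.89 and 6.60 to 4.81, 4.22 and 4.87 (log2 difference -1.36, SE 0.30; limma adjusted p = 0.0955). Both had separated groups, lower in the knockout-labelled arrays. Olfr1440, the muscone receptor whose gene neighbours that of Olfr1441 and shares its family, went the other way, from 5.77, 5.87 and 5.94 to 6.44, 6.59 and 6.79 (log2 difference 0.74, SE 0.11; limma adjusted p = 0.0256). Its contrast with Olfr1441 was not tested.

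Family MOR202, the tandem array in the middle of the stretch, held 20 of the 35 members, of which 6 fell, 17 were negative and 3 were positive. Its share called lower was 30.0%, beside 26.3% of the other receptors, 20.0% of the members outside this family and 1.90% of all clusters. Its median of -0.65 is near that of the other receptors, and its members ranged from -2.72 to 0.28. The deepest fall among the 35 members was that of Olfr1442, from 6.52, 6.66 and 6.56 to 3.92, 4.38 and 3.29. That is 6.59-fold lower (log2 difference -2.72, SE 0.25; limma adjusted p = 0.00526), and the SD was 0.07 among its wildtype values and 0.55 among the knockout-labelled ones. Its neighbour Olfr1443 had a small and even fall, from 4.23, 4.28 and 4.28 to 3.69, 3.71 and 3.59 (log2 difference -0.60, SE 0.08; limma adjusted p = 0.0145). These receptors thus show the largest and the smallest called fall side by side. All 6 called falls of MOR202 were in receptors whose mean signal was not above the 25th percentile of all clusters (5.99). The same held for 28 of the 35 members. How far their low values exceed background is unknown here.

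Further along the array, Olfr1459 went from 6.32, 5.41 and 6.06 to 4.06, 3.86 and 4.18, a fall of 3.72-fold (log2 difference -1.90, SE 0.23; limma adjusted p = 0.0108). Olfr1489, at the end of the MOR202 run, fell 3.68-fold from 4.99, 4.73 and 4.63 to 3.43, 2.73 and 2.55 (log2 difference -1.88, SE 0.23; limma adjusted p = 0.0118). In Olfr1466 the signal went from 6.34, 5.84 and 5.70 to 4.69, 4.94 and 4.61 (log2 difference -1.21, SE 0.18; limma adjusted p = 0.0233). The groups stood apart in each of these receptors. Olfr1442 and Olfr1489 kept the call without any single array, and Olfr1459 lost it without knockout-labelled replicate 1 (limma adjusted p = 0.0511). Olfr1443 lost it without wildtype replicate 2 (0.0562) or knockout-labelled replicate 1 (0.0653), 2 (0.0511) or 3 (0.0691), and Olfr1466 without wildtype replicate 2 (0.058) or knockout-labelled replicate 1 (0.104), 2 (0.0513) or 3 (0.101).

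**Figure D4:**
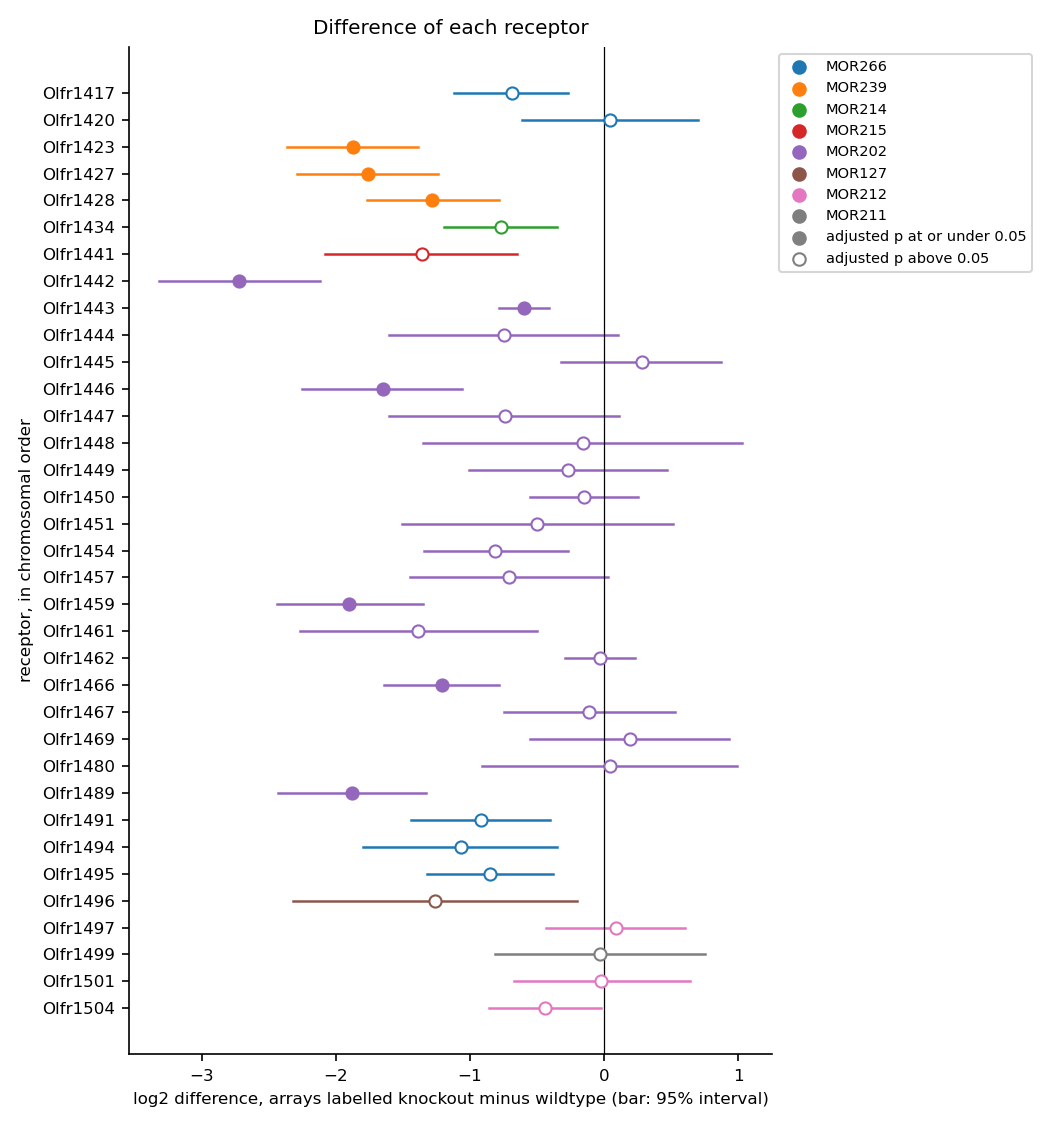
Log2 difference, knockout-labelled minus wildtype (horizontal axis), of the 35 receptors in chromosomal order, coloured by MOR family; bars are 95% intervals and filled points passed limma's test. The 9 filled points are all negative and belong to MOR239 and MOR202; the last 4 receptors of the stretch lie between -0.44 and 0.09.

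Of the other MOR202 receptors, Olfr1446 fell (-1.65; limma adjusted p = 0.0252) and the rest did not pass the test. Olfr1461 went from 5.57, 5.66 and 6.84 to 4.85, 4.92 and 4.13 (log2 difference -1.39, SE 0.37; limma adjusted p = 0.19) and Olfr1454 from 3.66, 3.23 and 3.78 to 3.14, 2.36 and 2.75 (-0.81, SE 0.23; limma adjusted p = 0.213), both without overlap of the groups. Olfr1444 stood at -0.75, Olfr1457 at -0.71, Olfr1451 at -0.50 and Olfr1449 at -0.27, with overlapping groups in each. In Olfr1451 wildtype replicate 2, at 4.91, lay below knockout-labelled replicates 2 and 3, at 5.79 and 5.25. Nearer to 0 were Olfr1450 at -0.15, Olfr1467 at -0.11, Olfr1480 at 0.04 and Olfr1469 at 0.19. Olfr1480 read 2.22, 3.46 and 2.50 against 3.24, 2.07 and 3.00, and its 95% interval of -0.91 to 0.99 includes the family median of -0.65. Olfr1469 read 2.70, 3.24 and 3.99 against 3.25, 3.53 and 3.72 and its 95% interval of -0.55 to 0.93 does not. The groups overlapped in both receptors.

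The pairs let receptors with like coding starts be compared within each array. Olfr1446 went from 5.85, 6.40 and 5.83 to 4.22, 4.87 and 4.02 (log2 difference -1.65, SE 0.25; limma adjusted p = 0.0252), while Olfr1447, with the identical coding start, went from 5.40, 6.59 and 6.92 to 5.65, 5.47 and 5.56 (-0.74, SE 0.36; limma adjusted p = 0.593). The groups of Olfr1446 stood apart and those of Olfr1447 overlapped through wildtype replicate 1. Without that array Olfr1447 passed the test at -1.19 (limma adjusted p = 0.0207). In the 5 other single-array removals it did not, with a limma adjusted p up to 0.831. Olfr1446 lost its call without wildtype replicate 1 (limma adjusted p = 0.0638), 2 (0.0629) or 3 (0.0635) or knockout-labelled replicate 1 (0.109) or 3 (0.0874). The difference between the differences was -0.91, and a two-sided exact permutation test of the within-array ratio over 3 and 3 arrays gave p = 0.2 (0.4 adjusted over 4 pairs).

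The 250 bases before the coding starts of Olfr1446 and Olfr1447 are given because these neighbours are also close duplicates there. They differed by 24 edits (9.60% of 250 bases), counting substitutions, insertions and deletions, where the median over all pairs was 131. Capitals mark the bases that differ or have no counterpart in the alignment.
Olfr1446: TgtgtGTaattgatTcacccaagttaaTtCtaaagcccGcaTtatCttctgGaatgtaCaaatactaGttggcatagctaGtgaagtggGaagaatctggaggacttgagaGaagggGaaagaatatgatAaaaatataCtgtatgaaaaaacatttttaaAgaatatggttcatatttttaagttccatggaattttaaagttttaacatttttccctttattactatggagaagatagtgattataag
Olfr1447: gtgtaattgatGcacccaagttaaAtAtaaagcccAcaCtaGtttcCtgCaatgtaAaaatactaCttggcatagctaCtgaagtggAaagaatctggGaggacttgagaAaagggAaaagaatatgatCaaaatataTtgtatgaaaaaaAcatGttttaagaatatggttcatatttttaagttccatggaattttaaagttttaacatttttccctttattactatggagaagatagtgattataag
On the minus strand of GRCm38.p6 these are chr19:12890576-12890825 and chr19:12901779-12902028. The bases next to the coding start are the same in both, and the differences gather in the farther part. RefSeq places the start of these genes at the start codon, so the windows may not hold their promoters.

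Olfr1501 and Olfr1504 of family MOR212 differed by 19 upstream edits, the fewest of any pair. Olfr1501 read 5.74, 6.35 and 6.63 against 6.48, 5.76 and 6.43 (log2 difference -0.02, 95% interval -0.67 to 0.64), and Olfr1504, the last member of the stretch, 3.29, 3.64 and 3.36 against 3.36, 2.78 and 2.84 (-0.44, 95% interval -0.86 to -0.02; limma adjusted p = 0.462). Their difference of differences was 0.42 (two-sided exact permutation p = 0.3, 0.4 adjusted). For Olfr1445 and Olfr1448, with 29 upstream edits, both 95% intervals ran from negative to positive. Olfr1445 had the highest difference of the 35 members at 0.28 (95% interval -0.32 to 0.87), from 4.01, 3.51 and 4.43 to 4.28, 4.53 and 3.96. Olfr1448 was at -0.16 (95% interval -1.35 to 1.03), with 4.63, 4.63 and 3.19 against 3.47, 4.87 and 3.63, and the pair differed by 0.44 (two-sided exact permutation p = 0.7, 0.7 adjusted).

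The fourth pair was the least alike of the 4 in its coding starts (43 of 50 bases) and diverged most in its values. Olfr1459 fell by 1.90 on the log2 scale, while Olfr1462 stood at 2.64, 2.61 and 2.71 in wildtype arrays and 2.67, 2.42 and 2.78 in knockout-labelled arrays (log2 difference -0.03, 95% interval -0.29 to 0.23). The difference of differences was -1.87 (two-sided exact permutation p = 0.1; 0.4 adjusted over the 4 pairs). With 3 arrays per group no exact p can be smaller than 0.1. Upstream, this pair differed by 125 edits, near the median of all pairs. All 6 values of Olfr1462 lay between 2.42 and 2.78, and whether they exceed background is unknown here.

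**Figure D5:**
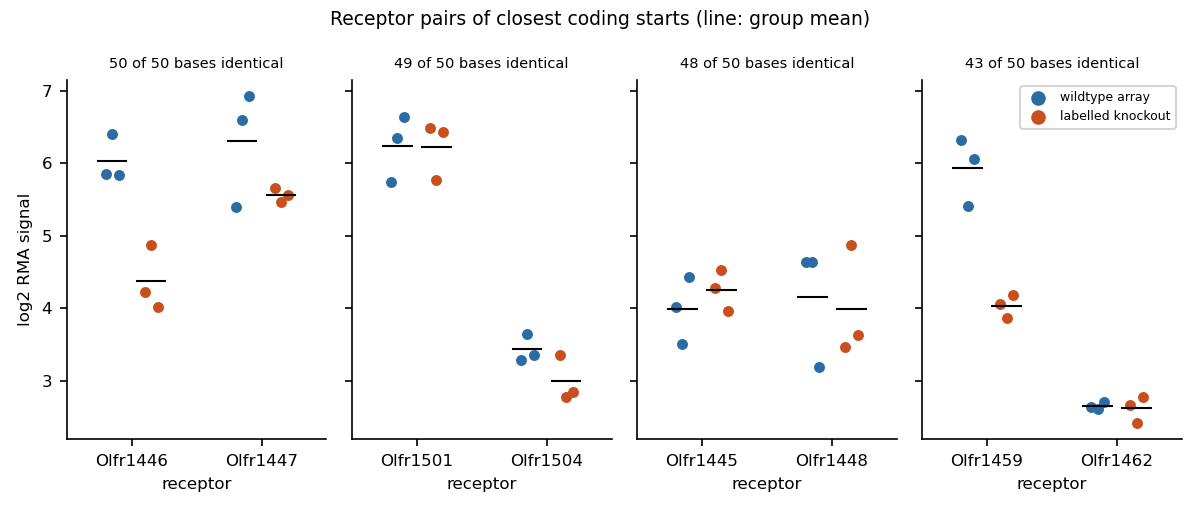
Log2 signal (vertical axis) in each array for the 4 pairs of receptors with the most similar first 50 coding bases; points are arrays and lines group means. Olfr1446 and Olfr1459 are separated by genotype label while Olfr1447 and Olfr1462 overlap; levels of different clusters are not comparable, since each has its own probes.

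At the far end of the stretch, 4 receptors of families MOR212 and MOR211 had small differences, between -0.44 and 0.09. Besides Olfr1501 and Olfr1504, these were Olfr1497 at 0.09 (95% interval -0.43 to 0.60), with 6.42, 6.01 and 6.68 against 6.19, 6.81 and 6.36, and Olfr1499 at -0.03 (95% interval -0.81 to 0.75), with 3.72, 3.07 and 4.50 against 3.83, 3.61 and 3.76. All 4 had overlapping groups. For Olfr1497 and Olfr1501, whose signal was above the 25th percentile of all clusters, the interval excluded the -0.78 that the members averaged. The MOR212 mean was 5.35 ± 0.21 in wildtype and 5.22 ± 0.11 in knockout-labelled arrays (SD, n = 3 each). Their neighbour Olfr1496, the single MOR127 member, had 5.41, 5.43 and 6.17 against 3.83, 5.45 and 3.94 (log2 difference -1.26, SE 0.45; limma adjusted p = 0.371). Knockout-labelled replicate 2 was the array that overlapped the wildtype arrays, and without it Olfr1496 passed the test at -1.78 (limma adjusted p = 0.0393). In the 5 other single-array removals it did not, with a limma adjusted p up to 0.741.

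Setting each array's mean of the 676 other receptors to the same value gives the difference of each member relative to those receptors. On that scale the members had a median of 0.03, 7 were lower (limma, adjusted p at or under 0.05) and 9 were higher. Among the other receptors 22.6% were lower and 28.7% higher, so the members' 20.0% and 25.7% lie close to the receptor repertoire. Of all clusters 1.25% were lower and 91.7% higher on this scale, because it lifts every gene that did not fall with the receptors. The 7 lower ones were Olfr1442 (-1.95), Olfr1459 (-1.12), Olfr1489 (-1.11), Olfr1423 (-1.10), Olfr1427 (-0.99), Olfr1446 (-0.88) and Olfr1428 (-0.50). The 9 higher ones were Olfr1445 (1.05), Olfr1469 (0.96), Olfr1497 (0.86), Olfr1420 (0.81), Olfr1501 (0.76), Olfr1462 (0.74), Olfr1499 (0.74), Olfr1467 (0.67) and Olfr1450 (0.62). Of these, only Olfr1420, Olfr1497 and Olfr1501 had signal above the 25th percentile of all clusters. Olfr1462, the dimmest, had means of 2.65 in wildtype and 2.62 in knockout-labelled arrays. Whether the dim ones had room to fall was not tested. Olfr1443, called lower on the deposited values, was at 0.17 on this scale (limma adjusted p = 0.154).

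The other genes of the stretch showed no called change. Of 8 such genes with a cluster of their own, 0 passed the test (limma), 4 were negative and 4 positive, and 1 had an unadjusted p under 0.05. That 1 was Lpxn, an adaptor protein of focal adhesions, at 0.21 (limma adjusted p = 0.422). Patl1, a factor of mRNA decapping, stood at 0.05, Dtx4, a ubiquitin ligase of the Notch pathway, at 0.10, and Glyat, a mitochondrial acyltransferase, at -0.06. All 8 lay between -0.12 and 0.21, a range that also held 8 of the 35 receptors.

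The hexamer TAATTA, a core sequence that many homeodomain proteins bind and that reads the same on both strands, occurred in the start windows of 7 of the 33 members (21.2%). It occurred in 18.6% of 944 receptor windows and in 5.29% of all 32851 windows of the table. Of the 9 members that fell, all of which have a window, 1 held it, Olfr1466. The other 6 were Olfr1434, Olfr1444, Olfr1467, Olfr1496, Olfr1501 and Olfr1504, so it lay in windows of members with both low and near-zero differences.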

How the data were processed

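The deposited table holds 1 log2 value per transcript cluster and array, which the authors computed with Affymetrix Expression Console by RMA, per the submitters' processing notes. Background correction and quantile normalization are part of RMA, which assumes that most clusters do not change. Software versions and the array's genome build were unknown. Each target used 2.7 ug of total RNA, per the labels. Array medians lay between 7.64 and 7.73.

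Gene symbols came from the platform annotation, for 14945 clusters with 1 symbol, 983 with several and 733 with none, and the other 6577 rows were tested only as an alternative. Families, order and neighbours were read, by Entrez identifier, from a gene table on GRCm38.p6 that placed all 35 members, and sequences from RefSeq on that build. No protein sequences were at hand, so close pairs were chosen by the first coding bases, after the values had been seen. More pairs are shown than were planned. No member had several clusters.

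The 2 groups were compared two-sidedly with lmFit and eBayes (limma 3.58.1, R 4.3.3). P-values were adjusted by Benjamini-Hochberg over 16661 clusters, with a threshold of 0.05. Pairs were compared by exact permutation (scipy 1.17.1). Plots were drawn with matplotlib 3.10.9. On simulated data with 16661 clusters and 3 and 3 arrays, recovery was 50% for 1.5-fold and 100% for 2-fold changes. There were 17 false calls beside them, and 0 calls with no change simulated. The changed clusters were drawn at random from all clusters, so these rates do not describe the receptors. Olfr1461, at 2.61-fold lower with an SE of 0.37, did not pass the test (limma adjusted p = 0.19).

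Pairwise correlations between arrays ran from 0.975 to 0.991, and at most 9 values were identical in any pair. The pools hold different animals, and replicate numbers do not pair them: deviations of same-numbered arrays correlated at 0.007, 0.049 and -0.167. The members and lists were chosen with earlier results of these data known. The named members are the called falls, the 5 with the highest wildtype signal, those nearest the threshold, the 5 largest positive differences, the ends of the stretch and the extremes of each family of at least 3 members. Other members are named for completeness after their values were seen. As alternatives, the scaling, the filter on dim clusters and the rows tested were varied, a trend, robust variances or weights were used, replicate number or Y-linked signal entered the model, and single arrays were left out.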

Additional observations from a re-analysis of the deposited data

How the results depend on the processing

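The count of 9 members that fell was 9 with array medians subtracted, an intensity trend, robust estimation or array weights, 8 with the replicate number as a block, 7 relative to the other receptors, 6 with all rows of the table or a Y-linked covariate, and 3 to 9 without single arrays. Of the 7 members above the 25th percentile, 3 fell. No member was called higher except relative to the other receptors, where 9 were. There the median turned from -0.74 to 0.03, the mean moved from -0.78 to -0.01 and Olfr1443 turned to 0.17, by construction of that scale. The median was -0.56 within arrays of high Y-linked signal. Without single arrays it ran from -0.81 to -0.64 and the mean from -0.84 to -0.67.

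Over all clusters 340 passed, against 127 with the filter on dim clusters, 163 with all rows, 184 with the replicate number as a block, 195 with the Y-linked covariate and 162 to 247 without single arrays. The other genes of the stretch gave 0 calls in every one of these alternatives. These alternatives for all clusters and for the stretch were added after seeing the data. Of 286 alternative values for 20 members, 251 kept direction and call or had no call on either side. Another 29 lost the call, 5 gained it and 1, of Olfr1443, turned direction. Only the 9 called members among the 20 could lose a call. The calls gained by Olfr1420, Olfr1445, Olfr1469 and Olfr1497 were of higher signal relative to the other receptors, and that of Olfr1494 was a fall. With the replicate number as a block, Olfr1443 (limma adjusted p = 0.0854) and Olfr1466 (0.068) lost the call and Olfr1494 gained it (0.0469). With the Y-linked covariate Olfr1428 (0.0842), Olfr1443 (0.0533) and Olfr1466 (0.0744) lost it. With all rows tested Olfr1428 (0.0851), Olfr1446 (0.0714) and Olfr1466 (0.0678) did. The cause of these changes was not tested. Another choice among several clusters of a gene gave no value, since no member has several. Without a background value per cluster, no limit could be set for dim receptors.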

Other observations

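A further 8 clusters name several genes that include a receptor of this number range, so their signal belongs to no single receptor. A cluster of 2 receptors went from a mean of 5.01 to 3.17 (log2 difference -1.85; limma adjusted p = 0.00807) and a cluster of 3 from 3.57 to 2.39 (-1.19; limma adjusted p = 0.0382). The cluster of 4 receptors was at 6.35, 6.71 and 6.02 in wildtype arrays and at 5.24, 4.15 and 3.24 in knockout-labelled arrays (-2.15; limma adjusted p = 0.0921), a wide spread among the latter. The other 5 clusters, none of which passed the test (limma), ranged from -1.07 to 0.02.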
